A study of Homo sapiens with 4 samples.

Results

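Cytochrome c oxidase, complex IV of the respiratory chain, is described here through 41 nuclear genes for its subunits and assembly factors, of 20037 protein-coding genes in the RefSeq table. The genes were taken from a list by name, and a gene was given every peak whose summit lay inside the gene or within 10 kb of either end. The list holds 11 ubiquitous subunits, 4 tissue isoforms, 25 assembly factors and COX7A2L, a factor that joins complex IV to other complexes of the chain. NDUFA4, long counted as a complex I subunit and now placed in complex IV, stands under its newer symbol COXFA4 in the gene table, and the other 40 genes stand under the symbols used here.

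Complex IV passes electrons from cytochrome c to oxygen and pumps protons across the inner mitochondrial membrane. Its catalytic core is encoded by mitochondrial DNA, and the surrounding subunits come from the nucleus, some of them as paired isoforms with one form in most tissues and another in heart, muscle, lung or testis. Assembly factors insert heme A and copper into the core, control the translation of its subunits and hold the unfinished modules together. ERRα, the product of ESRRA, is an orphan nuclear receptor known for binding genes of mitochondrial energy metabolism.

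ERRα binding was measured by chromatin immunoprecipitation and sequencing in the cell line MDA-MB-231, which was established from a triple-negative human breast cancer. The groups were 2 ERRα ChIP libraries from cultured cells and 2 input libraries of chromatin with no antibody. The cells were grown with serum, and the labels name no treatment or genetic change in any library. The files are peak positions with the authors' values, so they hold no expression by which the cell line could be checked.

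On the numbered chromosomes, X and Y there were 14072 peaks in replicate 1 and 12659 in replicate 2, and 10059 were in the authors' list of peaks matched between the replicates. Of these, 5070 had an irreproducible discovery rate (IDR) of at most 0.05 and are called reproducible. The labels' read numbers, printed without an exponent sign, were taken as 29000000 reads for each ERRα library and 10000000 for each input library. Each fold enrichment below is the ratio of ChIP to input background that the authors gave for the peak, and each mean has its SD over n = 2 replicates. The folds of both replicates have the same 2 inputs below them. Since IDR selects peaks that agree between replicates, the like heights of reproducible peaks are a description only.

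All 11 ubiquitous subunit genes had a matched ERRα peak, and 8 of them (72.7%) a reproducible one. Of the 4 tissue isoforms, COX4I2 had a reproducible peak (25%), and the other three had no peak in any list. Of the 25 assembly factors, 7 (28%) had a reproducible peak, 6 had a matched peak that did not pass IDR, 2 had a peak in a single replicate and 10 had none (24%, 8% and 40%). Of all protein-coding genes, 12.5% had a matched peak that did not pass IDR, 12.1% had a peak in a replicate's own list only and 57.1% had none. COX7A2L had peaks in replicate 1 only. Over the 41 genes, 16 (39%) had a reproducible summit in the gene or within 10 kb, beside 18.3% of all protein-coding genes. Long genes have more room for a summit, and the genes of the list are short, with a median length of 9199 bp. Among genes of at most 20 kb, 13 of 32 in the list had a reproducible summit, beside 12.9% of all protein-coding genes of that size.

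Most of these summits lay at gene starts. A reproducible summit within 1 kb of a start was found for 14 of the 41 genes (34.1%), beside 4.31% of all protein-coding genes. By class the counts were 7 of 11 ubiquitous subunits, 1 of 4 tissue isoforms and 6 of 25 assembly factors. COX6C and COX4I2, the tissue isoform counted, have no listed start, and for such genes either end of the gene was used. With every matched peak counted, 23 of the 41 genes had a summit at a start (8.62% of all protein-coding genes), and 25 had one inside or within 10 kb (30.8%). No test was made of the list against other genes or of one class against another. These are counts of genes in 1 pair of ChIP libraries.

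**Figure D1:**
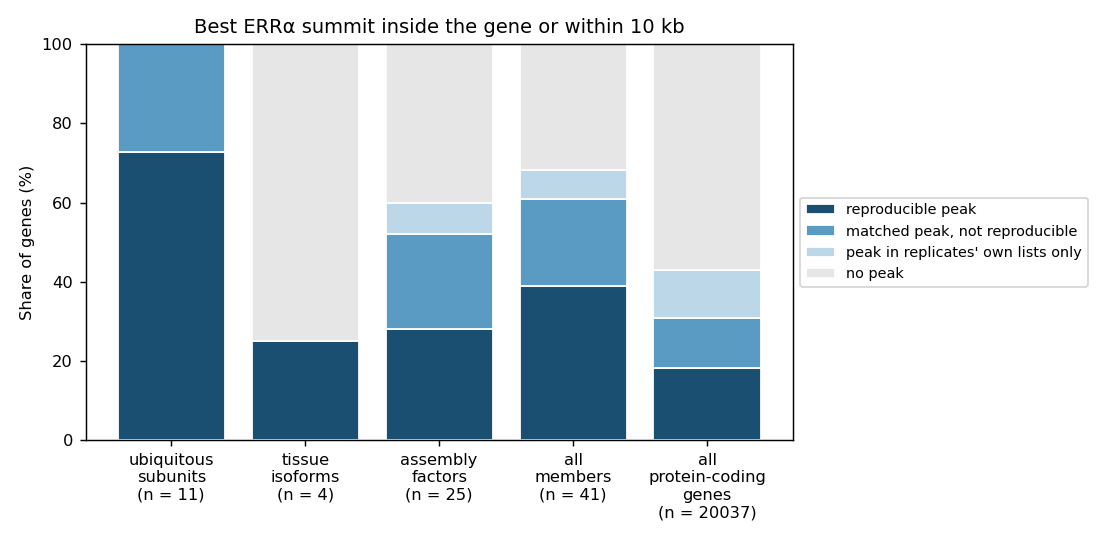
Share of genes (%) by the best ERRα summit inside the gene or within 10 kb, for 3 classes of complex IV genes, for all 41 genes and for all 20037 protein-coding genes. Every ubiquitous subunit has at least a matched peak, and no peak is found for 3 of 4 tissue isoforms and 10 of 25 assembly factors (40%), beside 57.1% of all protein-coding genes.

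Among the ubiquitous subunits, COX4I1 had the highest peak at its own start. COX4I1 encodes the largest nuclear subunit, which takes part in control of the enzyme by ATP. Its peak on chromosome 16, from 85799414 to 85800501 (GRCh38), had a fold of 63.9 in replicate 1 and 57.1 in replicate 2 (mean 60.5 ± 4.77, SD, n = 2). The summit lay 306 bp downstream of the COX4I1 start and 457 bp from the start of the neighbouring gene EMC8, a component of the membrane protein insertion complex of the endoplasmic reticulum. COX8A, a small subunit with a single membrane helix, had folds of 49.2 and 57.0 in replicates 1 and 2 (mean 53.1 ± 5.48), with the summit 16 bp downstream of its start. Both peaks ranked high among the 5070 reproducible ones, at 167 and 209.

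COX6C, COX6A1 and COX7C formed a middle group with means near each other. COX6C, a membrane subunit, had folds of 35.7 and 32.2 (mean 34.0 ± 2.51), with the summit 331 bp inside the upper coordinate end of the gene on chromosome 8. COX6A1, the ubiquitous form of a subunit at the dimer interface, had 33.4 and 32.9 (mean 33.2 ± 0.335). COX7C had 30.4 and 29.8 (mean 30.1 ± 0.448) with its summit 508 bp downstream. COX6C and COX6A1 did not differ beyond the SD of COX6C.

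COX7B, COX5A and COX5B were lower. COX7B on the X chromosome had folds of 23.6 and 20.1 (mean 21.9 ± 2.44), and its summit, 1049 bp downstream of the start, fell just past the 1 kb window. COX5A, which faces the matrix, had 16.4 and 17.7 (mean 17.0 ± 0.963). COX5B, a zinc-binding subunit on the matrix side, had 10.3 and 14.5 (mean 12.4 ± 2.96), and this was the largest ratio between replicates (1.41) among the 19 reproducible peaks of the list. A second COX5B peak, 1725 bp downstream of the start, had folds of 7.77 and 6.44 and did not pass IDR.

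The other 3 ubiquitous subunits had matched peaks at a start that did not pass IDR. NDUFA4 had folds of 13.7 in replicate 1 and 7.25 in replicate 2, with the summit 16 bp from its start. Its replicate 1 value exceeded that of COX5B, and its replicate 2 value was below it. COX6B1, on the side of the enzyme that meets cytochrome c, had 7.95 and 11.1 with the summit 72 bp downstream. COX7A2 had 5.14 and 7.53, and its summit lay 55 bp from a second listed start inside the gene rather than at the outermost one.

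Promoter sequence is shown for COX8A because its summit lies in the RefSeq promoter window, and for COX4I1 and COX5B, which were chosen after their values were seen. Each stretch covers 150 bases before the start base to 29 after it (RefSeq, GRCh38.p14, all on the plus strand). Capitals mark the ERR core AGGTCA and the ETS word CCGGAAGT on either strand. The places are chr11:63974470-63974649 for COX8A, chr16:85799545-85799724 for COX4I1 and chr2:97645912-97646091 for COX5B.
COX8A: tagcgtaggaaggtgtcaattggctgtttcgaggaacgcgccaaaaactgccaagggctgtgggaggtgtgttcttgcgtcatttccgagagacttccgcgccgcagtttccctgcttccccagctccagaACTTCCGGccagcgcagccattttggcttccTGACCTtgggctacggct
COX4I1: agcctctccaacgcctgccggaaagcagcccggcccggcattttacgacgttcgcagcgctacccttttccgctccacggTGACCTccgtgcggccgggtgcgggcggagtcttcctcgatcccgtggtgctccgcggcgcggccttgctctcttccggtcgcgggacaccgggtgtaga
COX5B: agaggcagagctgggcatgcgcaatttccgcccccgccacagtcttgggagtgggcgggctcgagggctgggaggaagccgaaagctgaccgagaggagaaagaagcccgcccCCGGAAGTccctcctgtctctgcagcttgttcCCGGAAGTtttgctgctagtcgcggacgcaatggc

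The COX8A core, read on the minus strand, spans bases 12 to 17 after the start base, and its centre is 1.5 bp from the summit. The COX4I1 core lies 374 bp from its summit, which is beyond the sequence shown. The COX4I1 core lacks the A that comes before AGGTCA in the full ERR element, and the COX8A core has it. COX5B holds 2 ETS words and no ERR core in the stretch shown. The COX5B summit, 104 bp downstream of the start, also lies beyond that stretch.

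COX4I2 was the tissue isoform with a peak. It encodes the lung form of subunit 4, whose ubiquitous form is COX4I1, and lies on chromosome 20. Its peak, from 31638353 to 31639734, had folds of 27.7 and 32.5 in replicates 1 and 2 (mean 30.1 ± 3.39, SD, n = 2), and the summit lay 983 bp inside the lower coordinate end of the gene. Set beside its counterpart, the COX4I2 peak was lower than that of COX4I1 in both replicates. COX6A2 and COX7A1, the heart and muscle forms, and COX6B2, the testis form, had no peak in either replicate's list. Their nearest reproducible summits were 72.8, 261 and 53.9 kb away. The ubiquitous partners of these isoforms, COX6A1, COX7A2 and COX6B1, each had a matched peak in the gene, and that of COX6A1 was reproducible.

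HIGD2A had the strongest peak of all 41 genes. It encodes a small inner membrane protein needed to build the module around the COX3 core subunit. The peak on chromosome 5, from 176388418 to 176389615, had folds of 97.1 in replicate 1 and 76.9 in replicate 2 (mean 87.0 ± 14.3, SD, n = 2), and ranked at 64 among reproducible peaks. The summit lay 42 bp downstream of the HIGD2A start and 195 bp from the start of NOP16, a ribosome assembly gene, so the peak cannot be given to HIGD2A alone. Its relative HIGD1A, a gene induced by low oxygen, had a far lower peak of 14.0 and 11.5 (mean 12.7 ± 1.75), 553 bp downstream of its start. A weaker HIGD1A peak, with folds of 5.40 and 5.44, lay nearer to the start of ACKR2 and did not pass IDR.

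COX10, which makes the heme A precursor, was the other assembly factor with a high peak at its start. Its folds were 38.0 and 32.7 (mean 35.3 ± 3.82), with the summit 193 bp downstream, on chromosome 17 from 14068452 to 14070184. COX15, which turns that precursor into heme A, had no peak in any list, and the nearest reproducible summit was 234 kb away.

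CMC2, COX20 and TACO1 had lower reproducible peaks at their starts. CMC2, a small protein needed for complex IV assembly, had folds of 13.0 and 17.3 (mean 15.2 ± 2.99), with the summit 453 bp downstream of its start and 782 bp from that of CENPN, a centromere gene. COX20, a chaperone of the newly made COX2 subunit, had 11.8 and 16.1 (mean 14.0 ± 3.05). TACO1, an activator of COX1 translation, had 13.0 and 12.7 (mean 12.8 ± 0.230). The summits of COX20 and TACO1 were 147 and 45 bp upstream of a start, unlike those of the other reproducible peaks at starts with known strand. The means of CMC2, COX20, TACO1 and HIGD1A lay within 1 SD of COX20 from each other.

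Of the assembly factor sequences shown next, that of HIGD2A holds an exact match to the ERR element, and the others hold none in the stretch shown. HIGD2A, COX20 and TACO1 have their summit in the window, and COX10 was chosen after its values were seen. Capitals and limits are as above, except that in HIGD2A the capitals mark the full ERR element around the core. The places are chr5:176388601-176388780, chr17:14069354-14069533, chr1:244835156-244835335 and chr17:63600745-63600924, all on the plus strand, in the order shown.
HIGD2A: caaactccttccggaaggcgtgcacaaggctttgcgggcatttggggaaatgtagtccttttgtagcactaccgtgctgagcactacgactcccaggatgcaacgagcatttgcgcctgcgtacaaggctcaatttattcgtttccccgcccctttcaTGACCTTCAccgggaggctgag
COX10: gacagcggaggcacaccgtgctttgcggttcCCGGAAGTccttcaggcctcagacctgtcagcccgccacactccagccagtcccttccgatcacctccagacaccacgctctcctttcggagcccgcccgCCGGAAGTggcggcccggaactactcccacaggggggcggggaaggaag
COX20: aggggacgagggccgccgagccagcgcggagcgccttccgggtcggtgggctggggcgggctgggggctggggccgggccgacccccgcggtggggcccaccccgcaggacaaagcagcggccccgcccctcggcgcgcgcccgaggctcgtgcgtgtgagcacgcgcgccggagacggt
TACO1: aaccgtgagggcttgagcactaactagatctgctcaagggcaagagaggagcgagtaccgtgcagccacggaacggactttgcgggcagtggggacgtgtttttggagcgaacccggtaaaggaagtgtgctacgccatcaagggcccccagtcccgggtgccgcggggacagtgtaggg

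In HIGD2A the capitals hold the full ERR response element TNAAGGTCA on the minus strand, at bases 8 to 16 after the start base, with its centre 30 bp from the summit. COX10 holds 2 ETS words, and COX20 and TACO1 hold neither word in the stretch shown. Only exact words were searched. The COX10 summit, 193 bp downstream of the start, lies beyond the stretch, so the letters under it were not read.

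Of the factors for copper delivery, 0 of 7 had a reproducible summit inside the gene or within 10 kb, beside 18.3% of all protein-coding genes, and with so few genes nothing is read from this count. COX17, the chaperone that hands copper to the others, had a matched peak with folds of 8.12 and 5.25, and COA6, which acts with SCO1 and SCO2 at the copper site of COX2, had 7.81 and 10.8. COX11, COX16, COX19, SCO1 and SCO2 had no peak in any list. Of the factors for COX1 translation and early modules, 1 of 6 (TACO1, 16.7%) had one, a share near that of all genes. LRPPRC, which stabilises mitochondrial messenger RNAs, had 4.76 and 3.91, and CMC1, a partner of newly made COX1, had 5.61 and 8.42. COX14 and COA3, which bind newly made COX1, and SURF1, which acts on the same module, had no peak.

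The remaining peaks of assembly factors were weak. COX18, which inserts COX2 into the membrane, had folds of 5.87 and 7.65. PET117, a factor linked to heme handling, had 4.71 and 5.35, with a summit nearer to the start of KAT14 (201 bp) than to its own (517 bp). COA5 had a peak of 6.45 in replicate 2 alone, 112 bp from its start and 35 bp from that of UNC50. COA7 had one of 4.57 in replicate 1 alone, and COX7A2L had 2 in the same replicate, of 5.33 at 18.4 kb and of 6.14 at 437 bp from its start. PET100 had none. Across the 11 matched peaks of the list that did not pass IDR, mean folds ran from 4.34 to 10.5.

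**Figure D2:**
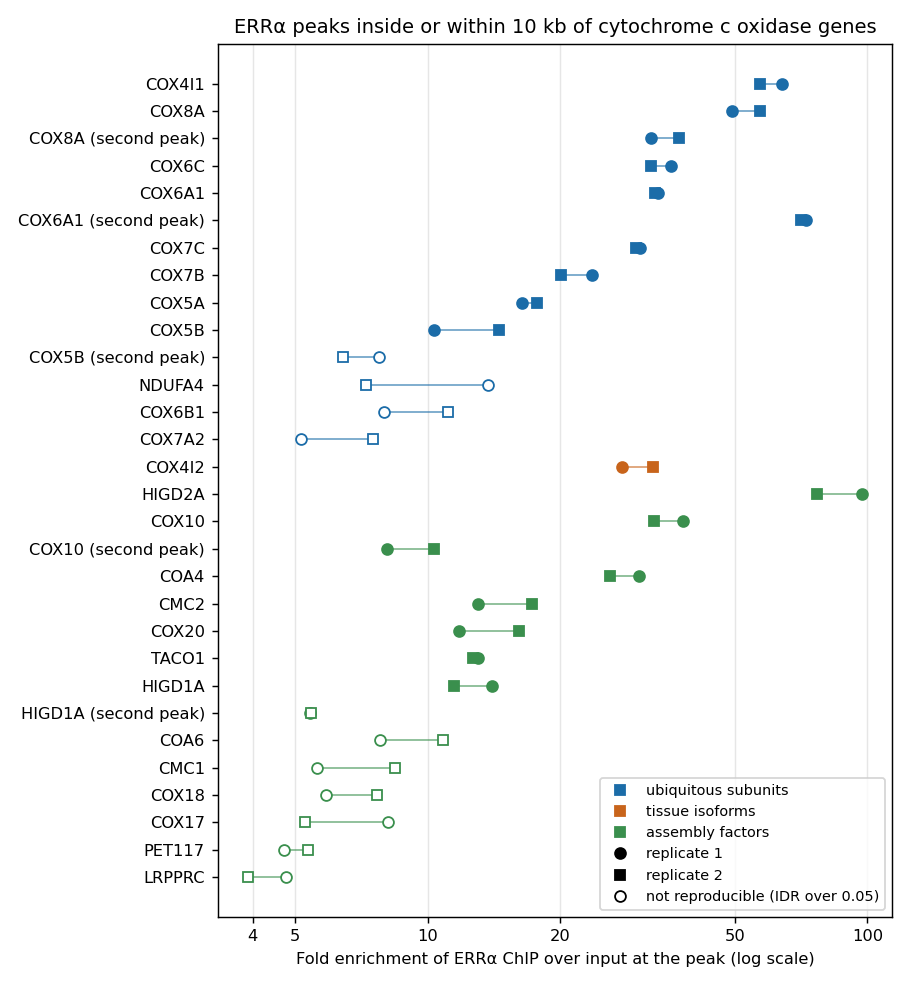
Fold enrichment over input (log scale) of all 30 matched peaks inside or within 10 kb of complex IV genes, circles for replicate 1 and squares for replicate 2, filled where reproducible. HIGD2A (97.1 and 76.9) and the second COX6A1 peak (72.6 and 70.5) reach furthest right, and most open symbols sit left of the filled ones.

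A reproducible summit more than 1 kb from the start of its gene was found at 5 places, one of them that of COX7B. The highest fold near any ubiquitous subunit was at such a place, 4.12 kb past the end of COX6A1 on chromosome 12 from 120444125 to 120446560. It had folds of 72.6 and 70.5 (mean 71.6 ± 1.5, SD, n = 2), but it lay 1.53 kb from the start of TRIAP1, a survival factor that carries lipids between mitochondrial membranes, against 6.74 kb from that of COX6A1. COX8A also had a second peak of 32.2 and 37.3 (mean 34.8 ± 3.57), 5.00 kb past its end and nearer to the start of OTUB1, a deubiquitinase. The COA4 peak, with 30.3 and 26.0 (mean 28.1 ± 2.99), lay 6.05 kb past the end of that gene and 10.2 kb from its start. COA4 is therefore counted by the 10 kb window alone. The fifth, deep inside COX10 at 95.4 kb from its start, had 8.10 and 10.3 and an IDR score of 628, the nearest above the threshold of 540. Just below that threshold were COX6B1 (499) and COA6 (491).

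Summits at the starts of complex IV genes lay mostly downstream. Of 12 reproducible summits within 1 kb of a start with known strand, 10 (83.3%) were downstream, and 8 (66.7%) were over 100 bp downstream. Over all protein-coding genes, where a summit was given to its nearest start, 343 of 641 (53.5%) were downstream and 285 (44.5%) were over 100 bp downstream. The median offset was 174 bp for complex IV genes and 42 bp for all genes, which include them. The median of the mean folds was 23.6 in the 12 peaks and 13.3 in all 641, and the median width was 1139 bp and 891 bp. These values describe 12 peaks, and the difference was not tested. COX6C and COX4I2 are left out of this count, since their strand was not taken from the table of starts. Downstream summits were not particular to complex IV. Genes of other respiratory complexes and of ATP synthase had them too, with the largest offsets at NDUFB4 (458 bp), NDUFS8 (490 bp), UQCRFS1 (472 bp) and ATP5F1A (489 bp). Other such genes had their summit nearer to the start, such as SDHD (22 bp), NDUFV1 (28 bp), NDUFS4 (52 bp), UQCRC1 (161 bp) and ATP5F1E (161 bp). At NDUFB6 and NDUFS7 the summit lay upstream (offsets of -72 and -36 bp).

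**Figure D3:**
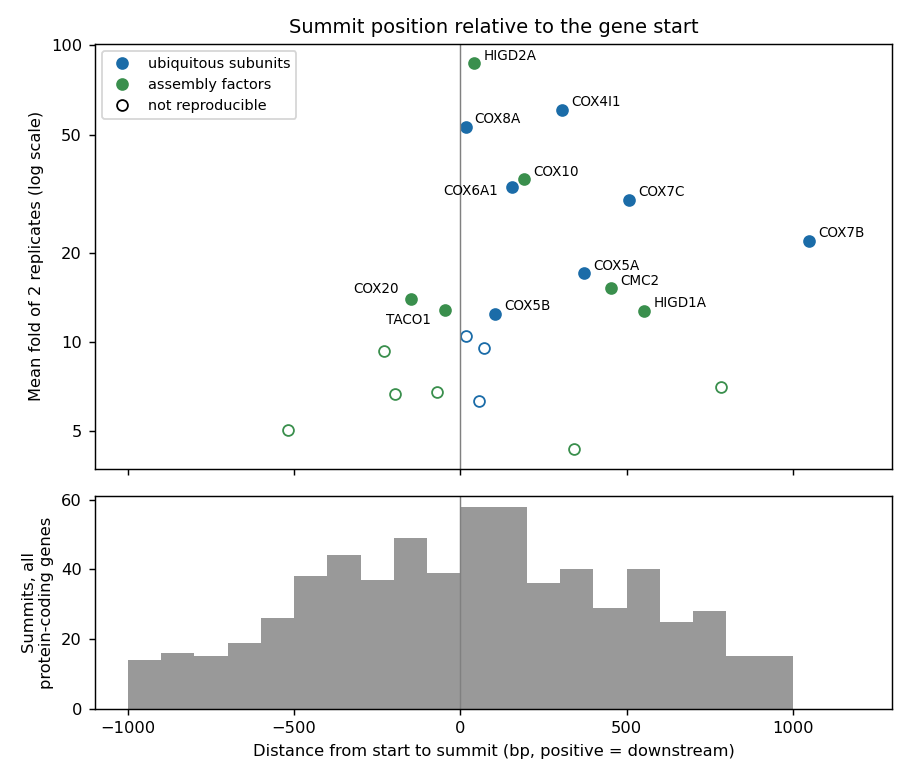
Upper panel, distance from the gene start to the summit (bp, positive downstream) against the mean fold of 2 replicates (log scale) for complex IV genes, open where not reproducible. Lower panel, the number of reproducible summits of all protein-coding genes in bins of 100 bp. The axis ends before the more distant summits of COX6A1, COX8A, COA4, COX10, COX5B and HIGD1A. COX6C and COX4I2 are not drawn, since they have no listed start. The reproducible summits drawn for complex IV genes run from 147 bp upstream to 1049 bp downstream, with those of COX20 and TACO1 upstream.

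Promoter windows of 300 bp (250 bases before the start to 50 after it, RefSeq, GRCh38.p14) were used for 36 of the 41 genes and for 15843 protein-coding genes, and both strands were searched. COX6C, COX11, COX7A1, COX4I2 and SCO2 had none. The full ERR element TNAAGGTCA was in 1 of the 36 (2.78%), HIGD2A, against 0.896% of all genes. Its core AGGTCA, which the full element contains, was in 8 of the 36 (22.2%) against 15.2% of all genes. In the 159 genes whose window held a reproducible summit, the full element was in 12.6% and the core in 56.6%. Of the 4 complex IV genes with a summit in the window, HIGD2A and COX8A held the core, and COX20 and TACO1 did not. The other matches were in COX4I1, COX7A2, NDUFA4, COX6A2, COX17 and COX18, so the core was also present at COX6A2, which had no peak. The core in COX18 had its centre 42.5 bp from the summit of a peak that did not pass IDR.

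The ETS word CCGGAAGT, read by GABP (nuclear respiratory factor 2), was in 8 of the 36 complex IV windows (22.2%), against 6.97% of all genes and 15.7% of genes with a summit in the window. It was at COX5B, COX8A, COX10, COX15, COX17, SCO1, COA4 and COA5, of which the first 3 had a reproducible summit at the start. The palindromic word of nuclear respiratory factor 1 was in 3 windows (CMC2, COX17 and COX18, 8.33%), against 1.99% of all genes. The SP1 word GGGCGG was in 25 of 36 (69.4%) and in 64.3% of all genes. The YY1 word AAGATGGC was in COX10 alone (2.78% against 4.66%), and the cyclic AMP response word TGACGTCA was in none (against 3% of all genes). Most reproducible summits of complex IV genes lay outside these windows, so the letters under them were not read.

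**Figure D4:**
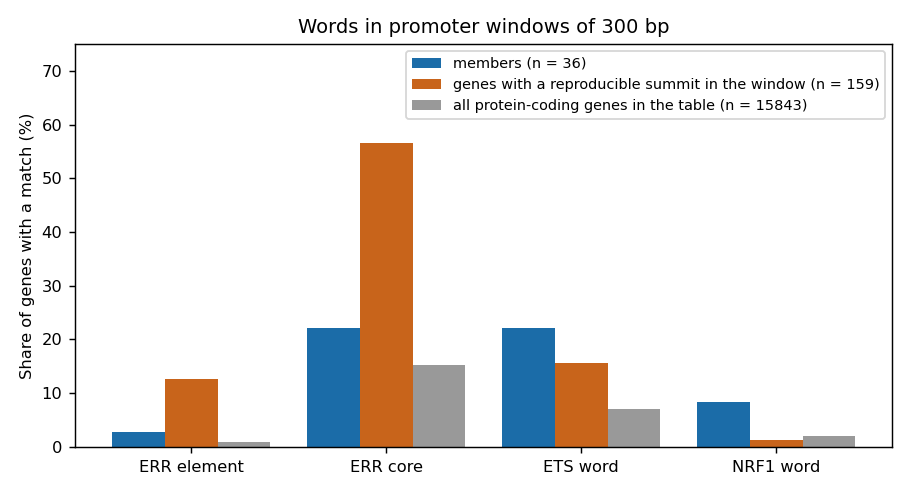
Share of genes (%) whose promoter window of 300 bp holds a word, for 36 complex IV genes, 159 genes with a reproducible summit in the window and all 15843 genes with a window. The ERR core reaches 56.6% where a summit lies in the window and 22.2% in complex IV genes.

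A further 18 genes that work with complex IV were listed beside the 41. Of these, 4 (22.2%) had a reproducible summit inside the gene or within 10 kb, against the 18.3% of all protein-coding genes given above. Within 1 kb of a start it was found for 2 (11.1%), against 4.31% of all protein-coding genes, and nothing is read from so few genes. OXA1L, which inserts mitochondrially encoded subunits into the membrane, had folds of 12.7 and 10.8, 197 bp from its start. SLC25A3, a carrier of phosphate and copper, had 8.34 and 10.1, 172 bp from its start. The PNKD summit lay just inside the lower coordinate end of the gene, far from its listed start, and the COA1 summits were deep inside the gene. COX7B2 and COX8C, testis isoforms of subunits whose ubiquitous forms had reproducible peaks, had no matched peak. The heme A partners FDX2 and FDXR had none, and cytochrome c itself, CYCS, had a matched peak that did not pass IDR.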

How the data were processed

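ERRα ChIP-seq was analysed from 3 deposited peak lists, 1 for each of the 2 ERRα replicates and 1 of peaks matched between them. The submitters' processing notes name MACS2 2.2.6, Bowtie2 2.3.5, Trim Galore 0.6.5, deepTools, SAMtools and Picard, with the build hg38. Their parameters are not stated in the sources used here. The fold enrichment is the authors' ratio at each peak, called per replicate against both inputs, and the authors also deposited a −log10 q and a −log10 p for every peak, of which the −log10 q served in an alternative. The 2 fold columns of the matched list name no replicate and were not used. The deposited score of the matched list runs from 154 to 1000 and grows as the IDR falls, so an IDR of 0.05 is a score of 540. Peaks on other contigs (371 in replicate 1, 358 in replicate 2 and 272 matched) were left out.

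From these lists, each matched peak was given the strongest overlapping peak of each replicate's own list, and its mean and SD were computed. At 2 of the 30 matched peaks beside the genes, several peaks of a replicate overlapped. Genes came from RefSeq (GRCh38.p14, the same build as hg38), and starts from its promoter table for 15843 of 20037 protein-coding genes. For the rest, either end was used. Summit assignment and word search were tested on simulated data (Python 3.11.15, numpy 2.4.6, pandas 2.3.3). Folds are given for every gene of the list with a reproducible summit or a peak within 1 kb of its start. Summit positions are given for most of these genes. Sequences are shown for genes whose reproducible summit lies in the promoter window, unless said otherwise. The genes and lists were chosen with earlier results of these data known. No depth per peak was used, so no interval covers counting error. Nothing was tested across conditions. Alternatives were other IDR and −log10 q thresholds, each replicate alone, stricter overlap, other windows and other forms of the ERR element.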

Additional observations from a re-analysis of the deposited data

How the results depend on the processing

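The counts of 16 genes within 10 kb and 14 at a start stayed within 1.5 times at an IDR of 0.01 (16 and 14), with −log10 q of at least 5 and summits within 100 bp (22 and 20), and with other windows. At an IDR of 0.01 all protein-coding genes came to 14.9% and 3.43%, and in the −log10 q setting to 24.7% and 6.01%. Without the IDR threshold the counts in the list were 25 and 23 (13 and 12 assembly factors), and all protein-coding genes came to 30.8% and 8.62%. With overlap of 50% of both peaks, 22 genes had a start summit, 12 assembly factors had a summit within 10 kb and 11 at a start, and all genes came to 29.5% and 7.9%. In each replicate alone, 26 to 27 genes had a summit within 10 kb and 24 to 25 at a start, with 14 and 13 assembly factors in either replicate, against 35.9% to 38.9% and 10.7% to 12% of all genes. The 18 further genes had 8 with a summit without the threshold, 8 with the overlap of 50%, and 9 to 10 in a replicate alone. Inside the gene only, 4 assembly factors had a summit, and within 500 bp of a start 0 tissue isoforms did. No share of all genes was taken for the other windows, so nothing is read from these counts. Of the ubiquitous subunits, 8 to 11 had a summit within 10 kb in all these settings. The ERR element was in 0 windows as TCAAGGTCA, against 0.335% of all genes. As AGGTCA it was in 8 windows (22.2%, against 15.2%), and as AAGGTCA in 4 (11.1%, against 4.26%). The form AAGGTCA was added after the COX8A sequence had been seen. In genes with a reproducible summit in the window, TCAAGGTCA was in 7.55% and AAGGTCA in 40.3%. All these lists rest on 2 ChIP libraries, and peaks below the authors' threshold cannot be seen. No paired analysis was possible because the inputs have no values of their own per peak.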
